A study of Homo sapiens with 6 samples.

Results

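The 9 genes described here carry the hedgehog signal from the cell surface to the nucleus: the co-receptors CDON, BOC and GAS1, the receptor PTCH1, the transducer SMO, the inhibitor SUFU and the transcription factors GLI1, GLI2 and GLI3. They were taken by name, as a pathway that had been linked to the microRNA miR-941, out of 26613 genes with counts, and all 9 were among the 15607 genes with enough counts to test. RNA-seq was done on 293T cells, a readily transfected derivative of a human embryonic kidney line. The mimic cells had received a miR-941 duplex (a mimic of the microRNA) at 10 nM and the mock cells a scrambled oligonucleotide at a concentration that the labels do not give, so that dose and sequence cannot be told apart. Each group had 3 independent replicates, and both were transfected with a cationic lipid reagent on cells plated 24 h earlier. How long after transfection RNA was taken is not given in these sources, and no untransfected cells were analysed here.

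Hedgehog ligands bind PTCH1 together with the co-receptors CDON, BOC and GAS1, and this binding ends the inhibition of SMO by PTCH1. Active SMO, in the primary cilium, releases the GLI factors from SUFU and from processing into repressors. GLI2 is the main initial activator, GLI3 acts largely as a repressor, and GLI1 is both an activator and a target gene. PTCH1 is also a target, so that the levels of GLI1 and PTCH1 mRNA are commonly read as the output of the pathway.

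The seed of a microRNA, its bases 2 to 8, pairs with matching sites in the 3′ untranslated region (3′ UTR) of mRNAs, and the mRNAs bound this way tend to fall. The mature strand is shown with the seed in capitals, in the form annotated by RefSeq (GRCh38.p14) at 5 copies on chromosome 20, the first at chr20:63919495-63919517 on the plus strand. Under it stand the only stretches in the 3′ UTRs or coding sequences of the 9 genes (GENCODE release 29, GRCh38) that pair with at least bases 2 to 7, with the pairing bases in capitals.
hsa-miR-941: cACCCGGCugugugcacaugugc
SUFU, 3′ UTR: ttttgtagaaaCCGGGTggtattttatt
SMO, coding sequence: tgtgagaatgaCCGGGTggagctgccca
GLI2, coding sequence: gcttccccgacCCGGGTaaaaaggcctc

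None of the 9 genes had the 7-base site GCCGGGT, which pairs with the whole seed, in its longest annotated 3′ UTR or in its coding sequence. That site was present in the longest 3′ UTR of 4.88% of 12997 tested genes and in the coding sequence of 6.19% of 13015. The 6-base match CCGGGT, present in 13.4% of 3′ UTRs, occurred in the 3′ UTR of SUFU alone. It lies at chr10:102630673-102630678 on the plus strand, in exon 12 of 12, and begins at base 518 of a 3′ UTR of 3380 bases. The SMO match lies at chr7:129203463-129203468 on the plus strand in exon 2 of 12, and the GLI2 match at chr2:120797402-120797407 on the plus strand in exon 2 of 14. In coding sequences, 20.3% of tested genes held such a match. The 3′ UTRs of the 9 genes ran from 201 bases in GLI1 to 5146 bases in CDON, which is longer than those of 92.3% of the tested genes. All of these are matches of letters and no binding was measured.

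Totals of 6401918 to 7651046 counts in the mimic libraries and 6079420 to 7405330 in the mock libraries lay behind the values, so that 3 counts correspond to 0.392 to 0.493 CPM (counts scaled to a common library total). Mimic replicate 3 stood apart from the other mimic libraries: its counts differed from theirs by 2.04 and 2.38 times the variation of sampling alone, against 1.27 times between those, and on the second principal component it lay at −10.1, against 4.04 and 7.20. Without it, CDON (−0.40), GAS1 (0.55) and SMO (−0.19) kept the calls described below, SMO narrowly (adjusted p = 0.0482, edgeR quasi-likelihood test). All CPM below are scaled with edgeR's TMM factors, which correct for the make-up of each library. Of 8 genes commonly expressed in 293T cells, 6 were found by symbol (PAX2, NEFM, INA, VIM, KRT8 and KRT18). Their summed level was 1917 to 2002 CPM in mimic libraries and 1800 to 1904 CPM in mock libraries. LHX1 and NEFL were not found by symbol. Of the 26613 genes, 1377 had no symbol here, GENCODE names included. A marker not found or not listed here may therefore still have counts. Of markers of other cells, the fibroblast list of 5 summed to 38.2 to 43.0 CPM in mimic and 37.9 to 40.6 CPM in mock libraries, nearly all of it from COL1A1, with DCN not listed. The blood cell list of 4, of which CD3E and CD68 had counts, summed to 18.7 to 22.02 CPM in mimic and 14.9 to 16.7 CPM in mock libraries, nearly all of it from CD68, a lysosomal protein gene. The liver list of 3 (APOB and TTR not listed) reached at most 0.279 CPM in mimic and 0.407 CPM in mock libraries. By the same test described below, NEFM and KRT18 of the 293T list and CD68 rose, and the part of these levels in the results was not tested. In RNA from whole cultures, fewer cells with a transcript and less of it per cell cannot be told apart.

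Of the 9 genes, GAS1 rose and CDON and SMO fell after the mimic, and the other 6 did not pass the test. This is 33.3% of the genes, against 13.0% of all 15607 tested genes (6.80% rose and 6.19% fell) by edgeR's quasi-likelihood test at an adjusted p of 0.05. In 5 of the 9 (CDON, GAS1, PTCH1, SMO and GLI2) the mimic and mock libraries did not overlap, against 28.3% of all tested genes. An unadjusted p under 0.05 was found in 4 of the 9, against 25.5%. The median log2 fold change of the 9 was −0.02, against 0.00 over all tested genes, with 4 values above 0 and 5 below. The genes were chosen with earlier results of these data known, so these shares are a description.

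**Figure D1:**
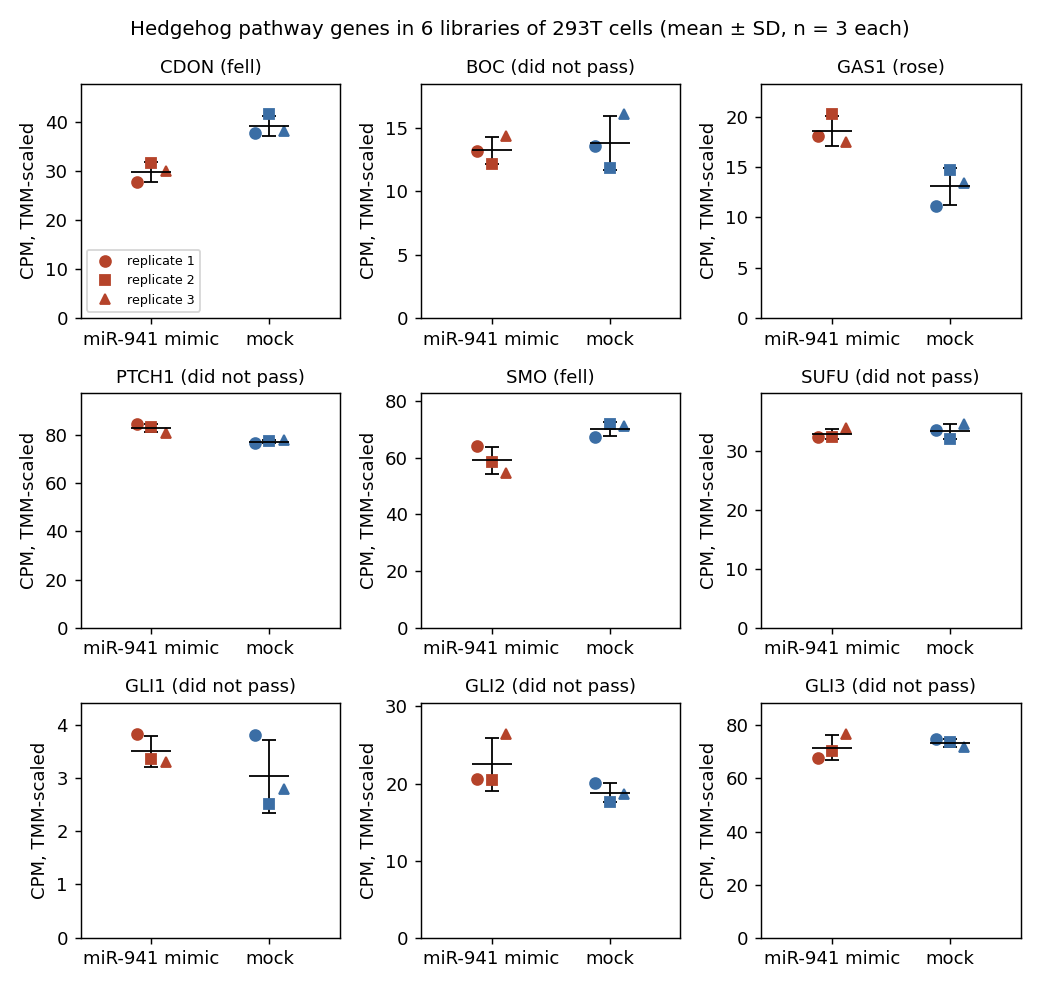
Level of each of the 9 genes in TMM-scaled CPM (vertical axes, each from 0) in 3 miR-941 mimic libraries and 3 mock libraries; symbols mark replicate numbers, and bars the mean and SD. The groups stand apart in CDON, GAS1, PTCH1, SMO and GLI2 and overlap in BOC, SUFU, GLI1 and GLI3.

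Of the co-receptors, CDON fell, GAS1 rose and BOC did not pass. CDON (chr11:125955796-126063335, minus strand, GRCh38 here and below), an immunoglobulin-family membrane protein that binds hedgehog ligands, had 27.7, 31.7 and 30.1 CPM in mimic libraries, against 37.7, 41.6 and 38.2 CPM in mock libraries. The highest mimic library lay below the lowest mock library. Its level averaged 29.8 ± 2.02 CPM in mimic and 39.2 ± 2.10 CPM in mock cells (SD, n = 3 each), a log2 fold change of −0.40 ± 0.09 (SE), or 0.760 times the mock level (adjusted p = 0.000575, edgeR quasi-likelihood test). GAS1 (chr9:86944363-86947189, minus strand), a membrane protein anchored by a lipid that also binds the ligands, had 18.1, 20.3 and 17.5 CPM in mimic libraries, against 11.1, 14.7 and 13.4 CPM in mock libraries. All mimic libraries lay above all mock libraries, and mock replicate 1 was the lowest. The means were 18.6 ± 1.47 CPM in mimic and 13.1 ± 1.83 CPM in mock cells (SD, n = 3 each). The log2 fold change was 0.51 ± 0.12 (SE), or 1.42 times the mock level, and passed (adjusted p = 0.00224, edgeR quasi-likelihood test). Without mock replicate 1 it was 0.40, with an adjusted p of 0.0589.

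BOC (chr3:113211003-113287459, plus strand), the paralog of CDON, had 13.2, 12.2 and 14.3 CPM in mimic libraries, against 13.6, 11.8 and 16.1 CPM in mock libraries, and the groups overlapped. Its log2 fold change of −0.06 had a 95% interval from −0.32 to 0.21, which holds no change as well as a fall close to that of CDON. BOC is the least certain of the co-receptors: 513 bases of its exons overlap those of CFAP44 on the opposite strand, CFAP44 was counted at 169% of the level of BOC, and no source used here says if reads were assigned by strand. Set against each other within each library, the log2 ratio of CDON to BOC was 1.04, 1.35 and 1.04 in mimic libraries, against 1.44, 1.77 and 1.22 in mock libraries. The ranges overlap, and a difference between CDON and BOC was not shown (difference −0.33, exact two-sided permutation p = 0.2). Without mock replicate 2 the difference was −0.19. With 3 libraries against 3 this test cannot give a p below 0.1.

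SMO (chr7:129188872-129213545, plus strand), the membrane protein that passes the signal into the cell, had 64.2, 58.4 and 54.8 CPM in mimic libraries, against 67.3, 71.9 and 71.1 CPM in mock libraries. The groups were apart, with mimic replicate 1 and mock replicate 1 the nearest to each other. The log2 fold change was −0.24 ± 0.07 (SE), or 0.847 times the mock level (adjusted p = 0.0103, edgeR quasi-likelihood test). This call sat near the threshold and ended under DESeq2's Wald test (adjusted p = 0.0645) and when mock replicate 2 (0.0528) or mock replicate 3 (0.0513) was left out, with the fold change at −0.24, −0.22 and −0.23.

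PTCH1 (chr9:95442980-95517057, minus strand), which holds SMO inactive and is itself induced by the pathway, had 84.5, 83.3 and 80.9 CPM in mimic libraries, against 76.5, 77.3 and 77.9 CPM in mock libraries. Every mimic library was higher than every mock library, but the difference was small. The log2 fold change of 0.10 (95% interval −0.02 to 0.23) did not pass (adjusted p = 0.292, edgeR quasi-likelihood test). Within libraries, the log2 ratio of PTCH1 to SMO was 0.39, 0.51 and 0.56 in mimic libraries, against 0.18, 0.10 and 0.13 in mock libraries. These did not overlap. The difference in mean log2 ratio was 0.35, or 1.27 times the mock ratio, at the smallest p that the exact two-sided permutation test allows here (0.1, or 0.167 with Benjamini-Hochberg adjustment over 5 ratios).

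SUFU (chr10:102503987-102633535, plus strand), which binds and restrains the GLI proteins, had 32.4, 32.4 and 33.8 CPM in mimic libraries, against 33.5, 32.0 and 34.6 CPM in mock libraries. The groups overlapped, and the 95% interval of the log2 fold change, −0.19 to 0.15, holds no change and changes of either sign. Of the 3 genes with a 6-base match, SUFU (log2 fold change −0.02) had it in the 3′ UTR, while SMO (−0.24, fell) and GLI2 (0.25, did not pass) had it in the coding sequence. The log2 ratio of SUFU to SMO was −0.97, −0.84 and −0.69 in mimic libraries, against −0.995, −1.16 and −1.03 in mock libraries. The ranges lay close together without overlap, with a difference of 0.23 (exact two-sided permutation p = 0.1, adjusted 0.167).

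Among the GLI factors, no gene passed. GLI2 (chr2:120735623-120992653, plus strand) had 20.6, 20.4 and 26.4 CPM in mimic libraries, against 20.1, 17.7 and 18.7 CPM in mock libraries. The groups did not overlap, though 2 mimic libraries lay close to mock replicate 1 and mimic replicate 3 stood well above the others. The log2 fold change was 0.25 (95% interval 0.02 to 0.47), and its p of 0.0305 was 0.144 once adjusted (edgeR quasi-likelihood test); leaving out mimic replicate 3 gave 0.12. GLI3 (chr7:41960950-42237870, minus strand) had 67.8, 70.3 and 76.8 CPM in mimic libraries, against 74.7, 73.8 and 71.8 CPM in mock libraries, which overlapped. Its log2 fold change was −0.04 (95% interval −0.17 to 0.09), and it was −0.0021 without mimic replicate 1 and −0.09 without mimic replicate 3. The log2 ratio of GLI2 to GLI3 was −1.70, −1.76 and −1.52 in mimic libraries, against −1.87, −2.03 and −1.91 in mock libraries. No mimic library reached down to the mock range, and the difference was 0.28 (exact two-sided permutation p = 0.1, adjusted 0.167).

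GLI1 (chr12:57460135-57472262, plus strand) was the lowest of the 9 genes, with 29, 24 and 21 counts in mimic libraries and 28, 18 and 17 counts in mock libraries, or 3.82, 3.35 and 3.31 CPM in mimic libraries against 3.80, 2.50 and 2.79 CPM in mock libraries. The groups overlapped, and the 95% interval of its log2 fold change, −0.31 to 0.71, is the widest of the 9. The log2 ratio of GLI1 to PTCH1, the pair of target genes, differed by 0.09 (exact two-sided permutation p = 0.7). That difference moved with single libraries, being 0.25 without mock replicate 1 and −0.02 without mock replicate 2, and the log2 fold change of GLI1 itself was 0.41 and 0.07 in the same cases.

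**Figure D2:**
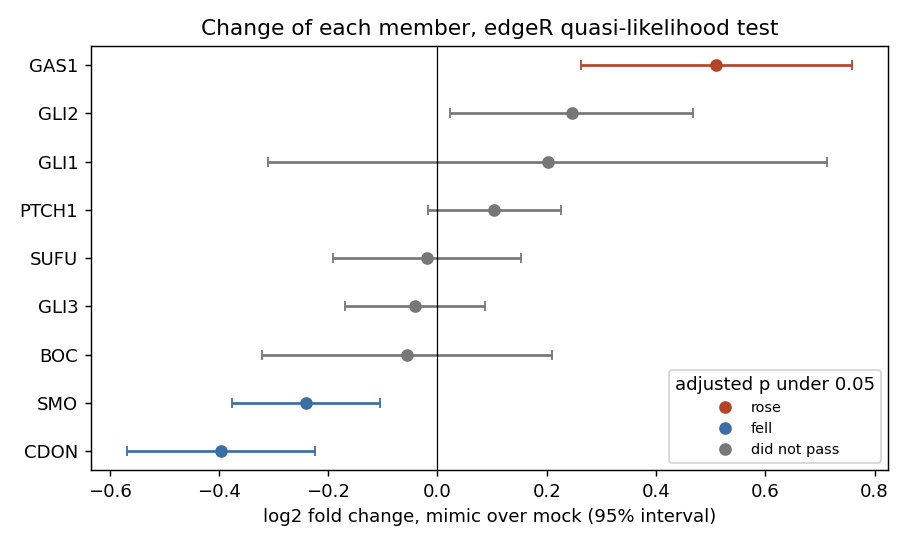
Log2 fold change of each gene, mimic over mock (points), with its 95% interval (bars) from edgeR's quasi-likelihood test; colours mark the calls at an adjusted p of 0.05. CDON (−0.40) and SMO (−0.24) lie below 0 and GAS1 (0.51) above it, and the interval of GLI1 is the widest.

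The call of CDON held under every scaling, filter and test tried and whichever library was left out, with a log2 fold change of −0.45 to −0.34, whereas that of GAS1 ended in 1 of 13 alternatives and that of SMO in 3.

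**Figure D3:**
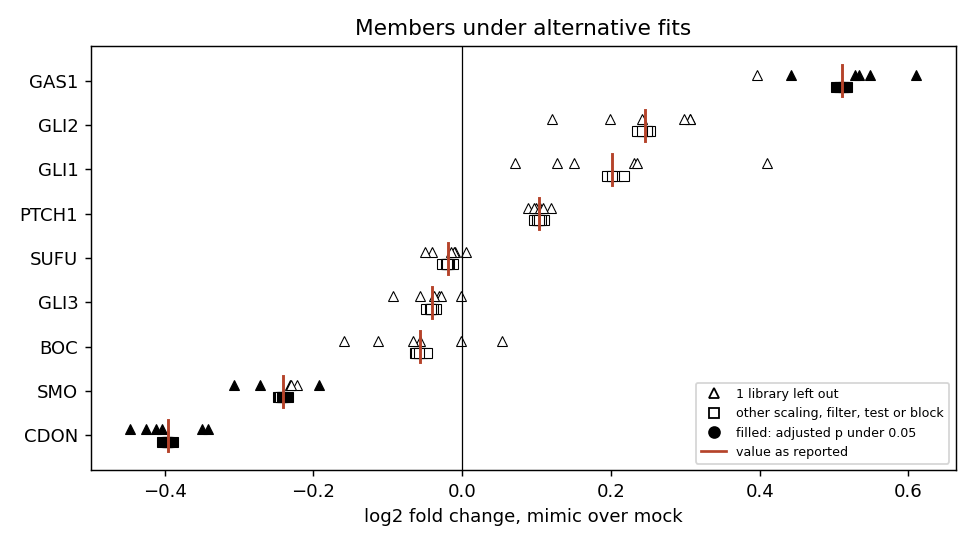
Log2 fold change, mimic over mock, of the 9 genes as reported (red lines), with 1 library left out (triangles) and under other scalings, filters, tests or the replicate block (squares); filled symbols passed at an adjusted p of 0.05. CDON passed throughout, and BOC and SUFU crossed 0.

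Levels of different genes were compared as CPM per kilobase of annotated exon. SMO was the highest, at 13.7 ± 1.11 in mimic and 16.3 ± 0.57 in mock cells (SD, n = 3 each). In mock cells GLI3 (6.71), SUFU (4.86), PTCH1 (4.65), GAS1 (4.63), CDON (3.69), GLI2 (2.56), BOC (1.34) and GLI1 (0.721) followed. In that order SUFU and PTCH1 overlapped over the mock libraries, as did PTCH1 and GAS1, and all other neighbours were apart. GAS1 and CDON were barely so, with the lowest GAS1 mock library at 3.93 and the highest CDON mock library at 3.92. In mimic cells GAS1 stood at 6.58, in the range of GLI3 at 6.54, and CDON at 2.81, in the range of GLI2 at 3.06, while PTCH1 (4.997) overlapped SUFU (4.79). The order also depends on the length used. PTCH1 has 16591 bases of annotated exon but 8057 in the transcript with the longest coding sequence, and with such lengths, an alternative added after the data were seen, PTCH1 was second to SMO in mock cells at 9.58. BOC then also passed GLI2, at 3.23 against 2.77.

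**Figure D4:**
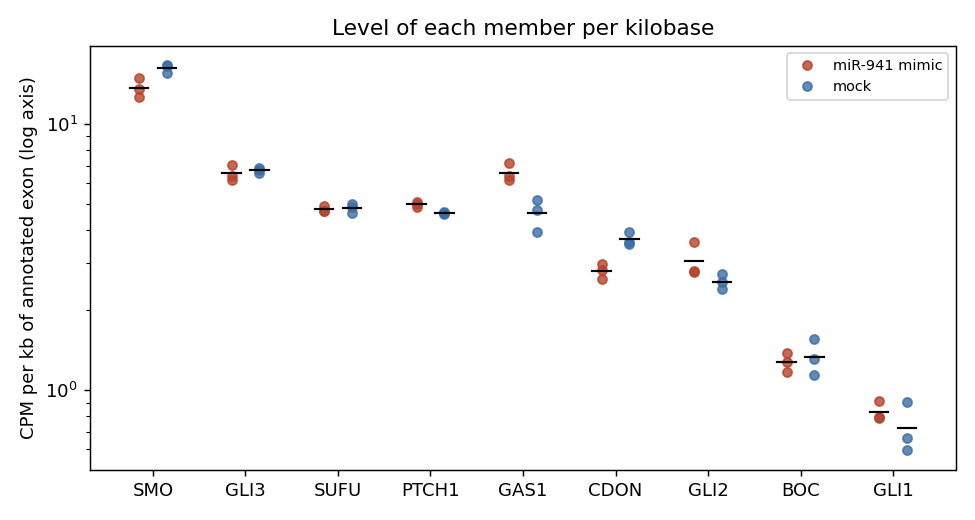
Level of each gene in CPM per kilobase of annotated exon on a log axis, for 3 mimic and 3 mock libraries (points) with group means (bars). SMO is the highest in every library and GLI1 the lowest, and GAS1 and CDON shift in opposite directions between the groups.

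The GLI proteins bind a short DNA motif near their target genes, of which PTCH1 is the best known. The motif GACCACCCA, or TGGGTGGTC on the other strand, was searched in RefSeq promoter windows (250 bases before to 50 after an annotated start, GRCh38.p14). It was present in 0.236% of 35116 windows. Of the 9 genes, all but GLI1 and GLI3 had windows, 15 in all, and 1 window of PTCH1 held the motif. Of 81 genes of the pathway, the lists below included, that had windows, PTCH1 alone had the motif. The window lies at chr9:95509217-95509516 on the minus strand, and the motif, in capitals, begins 172 bases before the start.
PTCH1 promoter: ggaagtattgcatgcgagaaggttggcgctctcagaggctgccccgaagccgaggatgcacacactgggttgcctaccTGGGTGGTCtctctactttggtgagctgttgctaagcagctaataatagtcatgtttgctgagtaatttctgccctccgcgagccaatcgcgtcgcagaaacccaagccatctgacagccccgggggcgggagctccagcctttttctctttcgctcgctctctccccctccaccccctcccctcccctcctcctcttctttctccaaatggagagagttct
The match is a description of these letters. No binding of a GLI protein was measured, and the level of PTCH1 in the same libraries is given above.

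CDON had the smallest p of the 9 genes, at rank 561 of 15607. The 5 genes whose level was most like that of CDON over the 6 libraries, out of 11301 that averaged 10 CPM or more, were PPP2R5C, NPTX1, SOCS5, AP1S2 and PCYT2, with Pearson correlations of log2 CPM from 0.988 to 0.995. The correlations describe 6 libraries in 2 groups. The genes were picked for likeness to CDON, which differs between the groups, so their own tests below are not independent of that choice. NPTX1, a neuronal pentraxin, averaged 44.7 ± 3.09 CPM in mimic and 55.0 ± 1.52 CPM in mock cells (SD, n = 3 each), and AP1S2, a subunit of a clathrin adaptor, 90.3 ± 2.13 CPM in mimic and 106 ± 3.63 CPM in mock cells. Both fell by edgeR's quasi-likelihood test (adjusted p of 0.00271 and 0.00235), as did the signalling suppressor SOCS5 (adjusted p = 0.0482), while the phosphatase subunit PPP2R5C and the lipid enzyme PCYT2 did not pass (adjusted p of 0.301 and 0.256). Values of PPP2R5C, AP1S2 and SOCS5, which share stretches of 100 bases with other annotated transcripts, and of PCYT2, which overlaps ANAPC11 on the opposite strand, are less certain.

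The rest of the pathway was followed through lists chosen by role. Over 95 tested genes of these lists outside the 9, 6 rose and 3 fell, or 9.47%, with a median log2 fold change of 0.03, against 13.0% and 0.00 over all tested genes. None of the ligand genes reached the filter for testing: SHH had 9, 4 and 4 counts in mimic libraries and 4, 5 and 6 in mock libraries, and IHH and DHH had 0 to 4 counts in each library. Of 6 tested genes of ligand lipidation and release, none passed (1 at an unadjusted p under 0.05, SCUBE1), and the median was −0.09. HHAT, the acyltransferase of hedgehog ligands, averaged 16.5 ± 0.68 CPM in mimic and 17.8 ± 1.65 CPM in mock cells (SD, n = 3 each). Of 6 other receptors and ligand binders none passed (1 at an unadjusted p under 0.05), and the median was 0.07. GPC4, a heparan sulfate proteoglycan and the highest of them, averaged 71.6 ± 2.11 CPM in mimic and 68.4 ± 2.41 CPM in mock cells. SCUBE1 and HHIP are named here after their values were seen. Of 14 regulators of SMO none passed (3 at an unadjusted p under 0.05), and the median was 0.02. DESeq2's Wald test and limma-voom called no gene in these 3 lists either. Leaving out 1 library gave 1 call in the release list (without mock replicate 3) and 1 in each of the other lists (without mimic replicate 2).

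In the list of GLI processing and turnover, 3 of 22 genes rose and 2 fell, 22.7% in all, against 13.0% of all tested genes, with a median of 0.02. GSK3B, a kinase that acts on GLI proteins in their processing, averaged 74.9 ± 5.16 CPM in mimic and 63.1 ± 1.89 CPM in mock cells (SD, n = 3 each). Its adjusted p was 0.00721 (edgeR quasi-likelihood test). SPOP, an adaptor that marks GLI proteins for degradation, averaged 69.3 ± 1.24 CPM in mimic and 60.4 ± 2.11 CPM in mock cells, and its paralog SPOPL 50.2 ± 1.34 CPM in mimic and 41.8 ± 0.45 CPM in mock cells. FBXW11, an adaptor of the ligase that leads GLI proteins to the proteasome, averaged 84.97 ± 0.48 CPM in mimic and 97.7 ± 4.88 CPM in mock cells, and DYRK2, a kinase that phosphorylates GLI proteins, 100.4 ± 4.62 CPM in mimic and 113.5 ± 4.05 CPM in mock cells. In the whole list the groups did not overlap in 10 of 22 genes, these 5 included, against 28.3% of all tested genes. Many of these calls ended when a library was left out. That of SPOP (adjusted p = 0.0349) ended whichever library was left out (adjusted p from 0.0556 to 0.166), and DESeq2's Wald test called none of the 5. SPOPL (adjusted p = 0.0107) kept its call whichever library was left out. It shares 251 stretches of 100 bases with the annotated transcript AC092620.2, and is less certain for that. GSK3B lost its call without mock replicate 3 (0.0523), FBXW11 (0.0132) without mimic replicate 1 (0.0525) or mock replicate 1 (0.133), and DYRK2 (0.0263) without mimic replicate 1 (0.0581), mimic replicate 3 (0.0808), mock replicate 1 (0.0665) or mock replicate 2 (0.148).

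Of 22 tested genes known as hedgehog targets, GLI1 and PTCH1 among them, 1 rose and 1 fell, or 9.09% against 13.0% of all tested genes, and the median was 0.09. Leaving out mimic replicate 2 gave 4 calls, leaving out mock replicate 3 gave 2, and leaving out any other library gave 1. CCNE1, cyclin E, which also answers to other growth signals, averaged 41.6 ± 4.72 CPM in mimic and 52.9 ± 3.68 CPM in mock cells (adjusted p = 0.00112, edgeR quasi-likelihood test). NKX2-2, a neural transcription factor, had 6.59, 6.29 and 7.56 CPM in mimic libraries, against 3.39, 4.59 and 5.57 CPM in mock libraries, a log2 fold change of 0.60 ± 0.20 (SE; adjusted p = 0.0346, edgeR quasi-likelihood test). Its call ended without mimic replicate 1 (0.0742), mimic replicate 3 (0.0961), mock replicate 1 (0.260) or mock replicate 2 (0.0722). HHIP, the decoy receptor that the pathway induces, had 15, 12 and 17 counts in mimic libraries and 9, 12 and 7 in mock libraries and did not pass (adjusted p = 0.281). Of 29 genes of intraflagellar transport and the primary cilium, where SMO acts, 2 rose and none fell, or 6.90%, with a median of 0.04. Over all tested genes, 13.0% were called in either direction and 6.80% rose. INPP5E, a ciliary phosphatase, averaged 94.9 ± 3.16 CPM in mimic and 79.3 ± 1.45 CPM in mock cells (adjusted p = 0.00115), and IFT27 averaged 46.0 ± 2.91 CPM in mimic and 39.6 ± 1.81 CPM in mock cells (adjusted p = 0.0485). IFT27 sat at the threshold: its call held without mimic replicate 3 (0.0150) and ended when any other library was left out (0.0590 to 0.183).

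**Figure D5:**
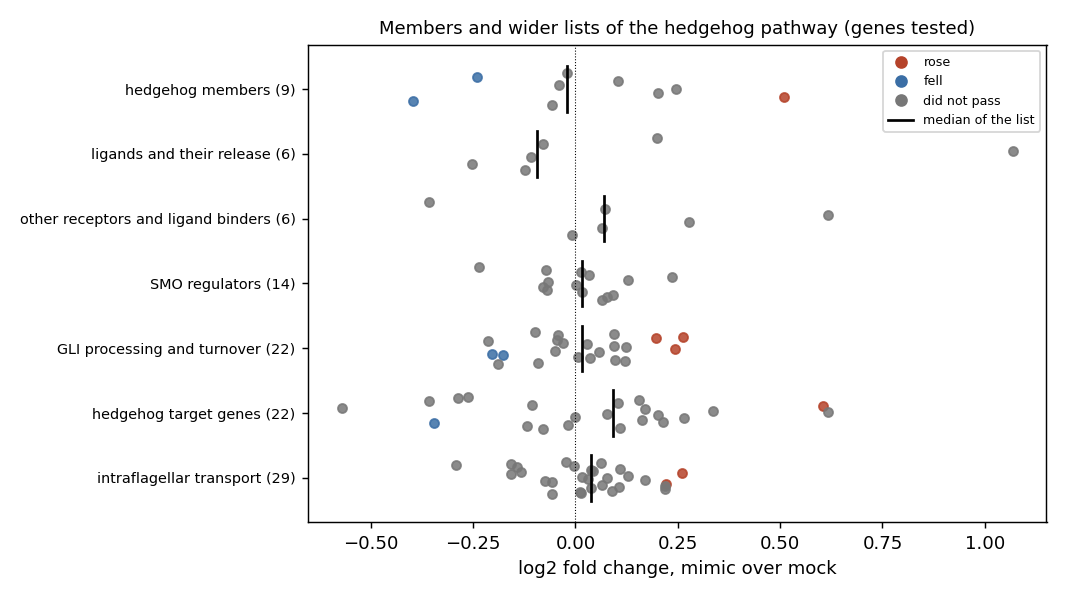
Log2 fold change, mimic over mock, of each tested gene of the 9 and of 6 lists chosen by role (points; the number of genes is in brackets), with list medians (black lines) and calls in colour. The medians lie between −0.09 and 0.09, and the 9 genes hold calls at both ends.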

How the data were processed

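Gene counts from 6 RNA-seq libraries of 293T cells were used, 3 per group by their titles. The deposited values are raw counts, whole numbers listed by Ensembl gene ID for each library without any scaling. Per the submitters' processing notes, STAR, edgeR and hg19 were used; the sources used here give no counting program, annotation or strand setting. Per the labels' protocols, ribosomal RNA was depleted and 100 bases were read from 1 end. Genes not listed for a library were set to 0. Symbols were matched for 25141 of 26613 genes.

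Counts were filtered with filterByExpr by group (99.7% of counts kept) and scaled with TMM (0.994 to 1.01). The test was edgeR's quasi-likelihood test (edgeR 4.0.16 in R 4.3.3; alternatives with DESeq2 1.42.0 and limma 3.58.1), two-sided, group only, robust, with Benjamini-Hochberg adjustment over 15607 genes. It was tested on simulated data. SE and intervals come from the test statistic. Within-library ratios used CPM plus 0.5. Replicates of a group differed beyond sampling noise (1.27 to 2.38 times the variation of sampling alone, the highest being for mimic replicate 3). The floor of 3 counts covers counting error only, whereas the 95% intervals include the spread between replicates.

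Genes named were the 9, in each list up to 6 called genes by p or else the highest gene, and the 5 most like the leading gene; others are marked, and some genes that this rule names are not reported here. The 9 genes and all lists were chosen with earlier results of these data known. Sites and coordinates come from GENCODE release 29 (GRCh38), not from hg19. Alternatives were other scalings, filters and tests, a replicate block and leaving out each library.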

Additional observations from a re-analysis of the deposited data

How the results depend on the processing

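CDON kept its call and direction in all 13 alternative fits (log2 fold change −0.45 to −0.34, adjusted p up to 0.0139), GAS1 in 12 and SMO in 10. With 1 library left out, GAS1 ranged from 0.40 to 0.61, SMO from −0.31 to −0.19, BOC from −0.16 to 0.054 and SUFU from −0.0499 to 0.0048; BOC and SUFU turned positive without mock replicate 3, and neither passed in any fit. Under DESeq2's Wald test SMO was at −0.24 and 1 of the 9 genes fell. With 1 library left out, 1 to 2 of the 9 fell and 0 to 1 rose. The same fits called 0 to 1 genes in each of the lists of ligands, other receptors and SMO regulators, 2 to 5 in GLI processing, 1 to 4 among targets, 1 to 2 in intraflagellar transport and 1302 (without mock replicate 1) to 2061 of all genes. DESeq2 called 0 genes in GLI processing, 1 among targets and 1015 of all genes. It gave no adjusted p for NKX2-2 or GLI1, and the filter at a mean of 5 CPM also left out GLI1. Intraflagellar transport had 1 called gene under DESeq2, limma-voom, RLE size factors, no filter on low counts and the replicate block. A 6-base in place of a 7-base site gave 1 gene with a site. The cause of these differences was not tested.

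Deviations of same-numbered libraries from their group means had correlations of 0.11, −0.11 and −0.05. With 3 libraries per group, these values cannot show whether the numbers pair libraries. With the replicate block 1819 of all genes were called, and CDON (−0.40), GAS1 (0.51) and SMO (−0.24) kept their calls. At 17 to 29 counts per library, depth limits GLI1 most.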
